A study of Mus musculus with 6 samples.

Results

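Dorsal pancreatic buds of mouse embryos at stage E11.5 were cultured for 24 h with 100 nM JQ1 or with 0.1% DMSO as the control, and RNA of each pool of 10 buds was read on 1 Affymetrix whole-transcript array. There were 2 JQ1 arrays and 2 control arrays, and 2 further arrays of buds given 500 nM I-BET151 entered the estimate of the spread between replicates and the floor. The comparison covers the genes of the deposited table that have a name: 24010 genes from its 24972 rows, of which 12420 reached a floor, a geometric mean intensity of at least 50 over the 6 arrays. Genes below the floor were not tested here. No strain is named, and nothing in the labels tells whether the 2 pools of 1 group were separate in litter or day of culture. The p-values therefore weigh differences against pool-to-pool spread that may be technical.

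JQ1 occupies the acetyl-lysine pockets of the BET proteins, whose mouse members include Brd2 and Brd3. These proteins bind acetylated histones at enhancers and promoters and help recruit the kinase complex P-TEFb, which releases paused RNA polymerase II into elongation. The bud at this stage is a mixed tissue: an epithelium of multipotent progenitors and first endocrine cells lies in mesenchyme with vessels, nerve precursors, macrophages and blood. Intensities here come from whole buds, in which fewer cells of a type and less RNA per cell cannot be told apart.

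Under JQ1, 2338 of the 12420 genes past the floor changed (18.8%; limma, Benjamini-Hochberg adjusted p under 0.05). Of these 1015 rose (8.17%) and 1323 fell (10.7%), and these 2 shares are the background against which the counts within gene lists below are read. Most changes were moderate. The median rise was 0.42 on the log2 scale, 1.33-fold, and 19 genes rose by 2-fold or more. The median fall was 1.45-fold, and 165 genes fell by 2-fold or more. For scale, replicate arrays of a group differed by a median of 0.09 on the log2 scale, and the median change over all genes past the floor was 0.01. In all 2338 called genes the JQ1 arrays lay apart from the controls with no overlap, as they did in 62.4% of the genes past the floor.

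The counts rest on having all arrays in the fit. Without CTRL 1, CTRL 2, JQ1 1 or JQ1 2, the rises numbered 381, 317, 241 and 369 and the falls 679, 607, 658 and 637, since each such fit has 1 array fewer and leaves 1 group with a single array. In these fits and in those without an I-BET151 array, 166 rises and 455 falls were called each time. Without the floor, 272 of 24010 genes rose (1.13%) and 640 fell (2.67%). The split between rises and falls depended on the scaling: 43.4% of calls were rises as deposited, and 60.9% (1597 rises and 1026 falls) with each array centred on its median. Those medians were taken over all 24010 named genes. The median change of the genes past the floor thereby moved from 0.01 to 0.07. Centring moves every log2 change by the same amount, less than the smallest called change of 0.25 in size, so no call could turn direction. The genes given with values below were picked, with results known, among those the naming rule gave, and kept their call in each alternative fit that tested them unless the text says otherwise. Genes with a mean intensity under 100 were not tested at the floor of 100. List counts without a single array are in the order CTRL 1, CTRL 2, JQ1 1 and JQ1 2. Calls over all genes were also far fewer in these fits, so a drop in a list's count there is not particular to the list.

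**Figure D1:**
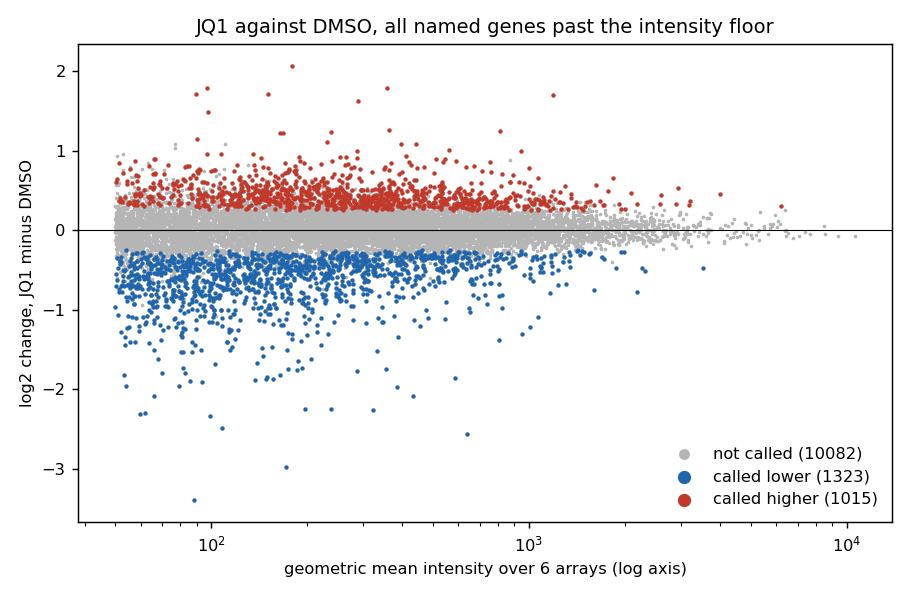
Each point is 1 of the 12420 named genes past the floor, placed by its geometric mean intensity over 6 arrays (log axis) and its log2 change, JQ1 minus DMSO. Red points are the 1015 called rises, blue the 1323 called falls, grey the uncalled genes; falls reach -3.40 (Cckar) and rises 2.07 (Hspa1a).

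Among genes with a mean intensity of 50 to 100, 14.9% fell and 5.29% rose. Among genes of 800 and over, 4.19% fell and 6.15% rose. In between, at 200 to 400, 10.2% fell and 10.3% rose. The mean was taken over all 6 arrays, so a fall itself moves a gene towards a dimmer bin and a rise towards a brighter one. The background set beside the gene lists below was not matched for intensity.

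The genes of BET proteins and transcription elongation, the machinery closest to the compound's target, included more rises than the background with all arrays in the fit. Of 34 members past the floor, 6 rose and 1 fell (17.6% and 2.94%), with a median change of 0.12. Hexim1, whose protein holds P-TEFb inactive, read 625 and 656 on the control arrays and 1263 and 1304 on the JQ1 arrays, a log2 rise of 1.00 ± 0.08 (SE, adjusted p = 0.000745). Its relative Hexim2 went the other way, from 69 and 83 to 43 and 40 (-0.87 ± 0.14, adjusted p = 0.00972), a call lost without the floor (adjusted p = 0.0636), without CTRL 2 (0.0578) and without JQ1 2 (0.0579). Brd2 stood at 595 and 576 in controls and 738 and 747 under JQ1, and its rise of 0.34 ± 0.07 (adjusted p = 0.0187) missed the threshold without any 1 control or JQ1 array (0.0704 to 0.0943) and without the floor (0.0522). Brd3 read 1075 and 1082 in controls and 1052 and 1096 under JQ1, and was not called (adjusted p = 0.963). Without CTRL 1, CTRL 2, JQ1 1 and JQ1 2 in turn, the rises in this list numbered 1, 2, 2 and 2, beside 381, 317, 241 and 369 over all 12420 genes, so without CTRL 1 the list's share was no higher than that of all genes.

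Other parts of the transcription apparatus moved little. Among 43 genes of RNA polymerase II and its general factors, 4 rose and 1 fell, with 1, 3, 1 and 3 rises without CTRL 1, CTRL 2, JQ1 1 and JQ1 2. Taf4, a subunit of the initiation factor TFIID, was among them, with 362 and 354 in controls and 501 and 508 under JQ1 (0.49 ± 0.08, adjusted p = 0.00707). Of the 33 subunits of Mediator, the complex that joins enhancers to the polymerase, 1 rose and 1 fell, both below the background shares. Chromatin remodelling genes had 3 rises and 2 falls among 44.

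Histone-modifying enzymes had 6 rises and 1 fall among 75. Kdm1b, a demethylase of histone H3 lysine 4, rose from 207 and 200 to 324 and 333 (0.69 ± 0.07, adjusted p = 0.00177). Replication-dependent histone genes, by contrast, were well above the background for rises, with 8 of 29 higher and 1 lower (27.6% and 3.45%) and a median change of 0.32. H2bc4 stood at 569 and 593 in controls and 1793 and 2000 under JQ1 (1.70 ± 0.08, adjusted p = 0.000306). These genes are near-identical copies, whose signals the array may not separate. Without CTRL 1, CTRL 2, JQ1 1 and JQ1 2 in turn, 9, 6, 4 and 5 of the list rose.

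Transcription factor families differed in direction. Of 19 Hox genes, which set position along the body axis, 5 rose and 1 fell (26.3% and 5.26%). Fewer Hox rises were called without any 1 control or JQ1 array, as were fewer rises over all genes past the floor. Hoxd8 fell from 77 and 76 to 47 and 39 (-0.84 ± 0.10, adjusted p = 0.00328). ETS factors had 5 falls and 1 rise among 19, and fewer falls without any 1 control or JQ1 array. Elf3, an epithelial member, read 83 and 94 in controls and 56 and 50 under JQ1 (-0.74 ± 0.09, adjusted p = 0.00388).

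Nuclear receptors, factors that bind hormones and lipids, had 5 falls and 1 rise among 25, and 2, 2, 3 and 2 falls without CTRL 1, CTRL 2, JQ1 1 and JQ1 2. Hnf4a, a regulator of liver, gut and pancreas epithelium, fell from 276 and 286 to 120 and 127 (-1.19 ± 0.08, adjusted p = 0.000489). Nr0b2, a repressor induced by bile acids, went from 102 and 82 to 54 and 50 (-0.82 ± 0.11, adjusted p = 0.00539). Nr6a1, expressed in early embryos and germ cells, rose from 57 and 59 to 85 and 91 (0.60 ± 0.08, adjusted p = 0.00374). The arrays of both groups were apart for each of these 3 genes, as for all 2338 called genes and 62.4% of the genes past the floor.

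Homeodomain genes outside the Hox clusters split evenly, with 5 rises and 5 falls among 60 (3, 2, 4 and 2 rises and 3, 3, 2 and 3 falls without CTRL 1, CTRL 2, JQ1 1 and JQ1 2). Mnx1, a factor of early pancreas and motor neurons, rose from 67 and 61 to 94 and 108 (0.66 ± 0.10, adjusted p = 0.00693). Prrx1, a mesenchymal factor, fell from 139 and 175 to 76 and 65 (-1.15 ± 0.13, adjusted p = 0.00283). Among 58 bHLH genes 8 fell and 3 rose, with 3, 4, 5 and 3 falls without the same arrays. The risen ones included Neurod1, which drives endocrine maturation (147 and 164 against 277 and 279, 0.84 ± 0.10, adjusted p = 0.00313). Hif3a, a relative of the hypoxia-inducible factors, was among the falls, at 550 and 545 in controls and 305 on both JQ1 arrays (-0.84 ± 0.07, adjusted p = 0.000947).

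Zinc finger genes of the Zfp series, mostly repressors of poorly known function, had 23 rises and 13 falls among 359 (6.41% and 3.62%), both under the background, with 13, 5, 5 and 13 rises without CTRL 1, CTRL 2, JQ1 1 and JQ1 2. Zfp442 rose from 132 and 123 to 216 and 206 (0.73 ± 0.08, adjusted p = 0.00194). Immediate early genes, which answer growth signals within minutes, had 4 rises and no fall among 19, and 1 to 2 rises without any 1 control or JQ1 array. Egr1 was at 182 and 170 in controls and 262 on both JQ1 arrays (0.57 ± 0.08, adjusted p = 0.0048). Myc, the growth regulator long used to gauge BET inhibitors, read 662 and 681 against 461 and 506 (-0.48 ± 0.08, adjusted p = 0.0118), and lost its call without the floor (0.0539), CTRL 1 (0.0536), CTRL 2 (0.0666) or JQ1 1 (0.0718).

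**Figure D2:**
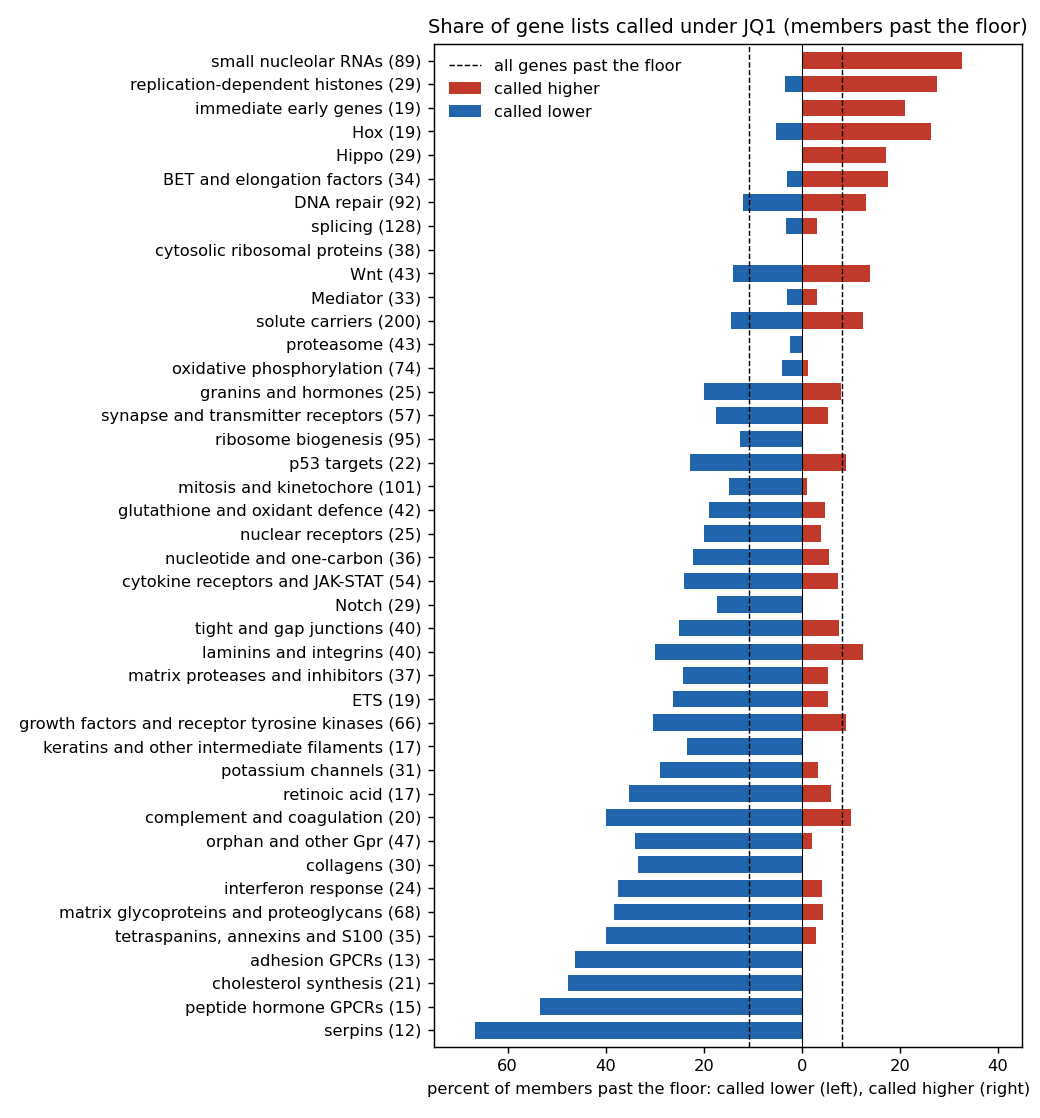
Bars give the percent of a gene list's members past the floor that were called lower (blue, left) or higher (red, right) under JQ1, with the number past the floor in brackets; dashed lines mark all genes past the floor, 10.7% lower and 8.17% higher. Cell type markers and lists with few members past the floor, such as digestive enzymes, are left out. The lists shown are, of the rest, those with the widest gaps between both shares and, for reference, 8 lists without one. Among those shown, serpins lie lowest (66.7% lower) and small nucleolar RNAs highest (32.6% higher).

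Receptors on the cell surface were lower in several families. G protein-coupled receptors for peptide hormones had 8 falls and no rise among the 15 past the floor (53.3% against 10.7%), with a median of -0.50. Aplnr, the apelin receptor of vessels and mesoderm, read 357 and 353 in controls and 107 and 95 under JQ1 (-1.82 ± 0.10, adjusted p = 0.000306). Cckar, the cholecystokinin receptor of acinar cells, went from 321 and 398 to 31 and 37 (-3.40 ± 0.17, adjusted p = 0.000306), the deepest fall of the comparison. In fits without CTRL 1, CTRL 2, JQ1 1 and JQ1 2, the list had 5, 6, 7 and 7 falls. Of the 57 receptors of this list in the table, the other members lay below the floor, and the median over all 57 was -0.05.

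The orphan receptors and the receptors for small transmitters, nucleotides and lipids also had mostly falls past the floor, with 16 falls and 1 rise among 47. Their median was -0.13, and over all 126 of the list in the table it was -0.005. Gpr65, which senses protons, went from 99 and 86 to 39 and 40 (-1.22 ± 0.09, adjusted p = 0.000798). Gpr17 stood at 87 and 101 against 37 on both JQ1 arrays (-1.34 ± 0.15, adjusted p = 0.00251). Gpr65 and Gpr17 thus lay below 50 under JQ1 and passed the floor through the other arrays. The same held for other fallen genes given here, among them Cckar, Slc28a3, S100a6, Gsta3, Hexim2 and Hoxd8. The sizes of these falls rest on dim JQ1 readings. The muscarinic receptor gene Chrm2 went from 129 and 123 to 64 and 54 (-1.10 ± 0.15, adjusted p = 0.0053). Gpr137c was the exception, at 72 on both control arrays and 262 and 214 under JQ1 (1.72 ± 0.11, adjusted p = 0.000449). Without CTRL 1, CTRL 2, JQ1 1 and JQ1 2, 7, 6, 8 and 7 of the list fell.

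Adhesion receptors, a family with long extracellular domains, had 6 falls and no rise among 13, although the other members placed the list's median at 0.00 (0.06 with arrays centred). Adgrg6, needed for Schwann cell myelination, read 277 and 259 in controls and 56 and 50 under JQ1 (-2.34 ± 0.10, adjusted p = 0.000306). Adgrf5 and Adgrl4, both endothelial, fell by less than 2-fold: Adgrf5 from 273 and 286 to 145 on both JQ1 arrays (-0.95 ± 0.07, adjusted p = 0.000745), and Adgrl4 from 96 and 90 to 49 and 50 (-0.91 ± 0.08, adjusted p = 0.0011). The falls numbered 6, 5, 4 and 4 without CTRL 1, CTRL 2, JQ1 1 and JQ1 2.

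Growth factors and receptor tyrosine kinases had 20 falls and 6 rises among 66 (30.3% and 9.09%), so falls stood above the background and rises close to it. Angpt1 and Tek, the ligand and receptor that stabilise vessels, both fell. Angpt1 read 208 and 163 against 64 and 44 (-1.79 ± 0.19, adjusted p = 0.00188), and Tek 148 and 168 against 63 and 47 (-1.53 ± 0.14, adjusted p = 0.00134). Gfra2, the neurturin receptor of nerve precursors, went from 148 and 156 to 84 and 67 (-1.02 ± 0.11, adjusted p = 0.00234). Fgf18 rose instead, from 138 and 165 to 325 and 327 (1.11 ± 0.10, adjusted p = 0.00121). Falls numbered 13, 9, 12 and 9 without CTRL 1, CTRL 2, JQ1 1 and JQ1 2. Tek is itself among the endothelial markers, so that list and this one are not separate. The values of those markers are given with the cell type lists, and the part of vessel cells in this list was not tested.

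Cytokine receptors and the JAK-STAT pathway had 13 falls and 4 rises among 54, and 6, 5, 4 and 6 falls without CTRL 1, CTRL 2, JQ1 1 and JQ1 2. Il22ra1, the epithelial receptor for interleukin 22, went from 109 and 104 to 50 on both JQ1 arrays (-1.09 ± 0.07, adjusted p = 0.000553). Stat6, the transcription factor of interleukin 4 signalling, fell from 302 and 323 to 171 and 170 (-0.87 ± 0.09, adjusted p = 0.00172). Il17rd, a membrane inhibitor of FGF signalling, rose from 329 and 315 to 478 and 492 (0.59 ± 0.08, adjusted p = 0.00402). Among the phosphatases that end ERK signalling, Dusp9 fell from 547 and 571 to 253 and 266 (-1.11 ± 0.07, adjusted p = 0.000489).

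Developmental pathways differed in direction. Wnt genes split into 6 rises and 6 falls among 43, and into 3 rises each time and 3, 2, 4 and 2 falls without CTRL 1, CTRL 2, JQ1 1 and JQ1 2. Fzd3 and Fzd6 encode receptors of the same family: Fzd3 went from 456 and 504 to 707 and 682 (0.53 ± 0.08, adjusted p = 0.00661), and Fzd6 from 279 and 289 to 164 and 138 (-0.92 ± 0.10, adjusted p = 0.00223). Dkk2, a secreted modulator of Wnt, fell from 131 and 128 to 65 on both JQ1 arrays (-0.99 ± 0.07, adjusted p = 0.000727). In the Hedgehog list 1 of 13 rose and 2 fell. Hhip, which binds Hedgehog ligands and is itself a target of the pathway, went from 110 and 118 to 63 and 59 (-0.90 ± 0.08, adjusted p = 0.00122), and Hhat, which acylates those ligands, from 170 and 189 to 94 and 79 (-1.06 ± 0.11, adjusted p = 0.00177).

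TGF-beta and BMP genes had 6 falls and 2 rises among 42, near the background, and Notch genes 5 falls and no rise among 29. The falls numbered 4, 3, 4 and 3 and 3, 2, 2 and 2 without CTRL 1, CTRL 2, JQ1 1 and JQ1 2. Fstl3, a secreted trap of activins, fell from 215 and 207 to 128 on both JQ1 arrays (-0.72 ± 0.07, adjusted p = 0.00187). Mfng, a glycosyltransferase that tunes Notch receptors, fell from 209 and 220 to 105 and 112 (-0.98 ± 0.10, adjusted p = 0.00185). Hippo pathway genes had 5 rises and no fall among 29, of which 1 to 2 were left without any 1 control or JQ1 array. Frmd6, an upstream member of that pathway, stood at 152 and 144 in controls and 339 and 356 under JQ1 (1.23 ± 0.08, adjusted p = 0.000489).

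Retinoic acid genes had 6 falls and 1 rise among 17, with a median of -0.06. With arrays centred the median was 0.00, beside 0.07 over all genes past the floor. Stra6, the receptor that takes up retinol, read 342 and 305 in controls and 191 and 170 under JQ1 (-0.84 ± 0.10, adjusted p = 0.0029). Crabp2, which carries retinoic acid to its receptors, fell from 169 and 184 to 94 and 97 (-0.89 ± 0.10, adjusted p = 0.00242). The falls numbered 3, 3, 4 and 4 without CTRL 1, CTRL 2, JQ1 1 and JQ1 2.

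Second messenger genes were closer to the background. Among 67 RGS proteins, G protein subunits, cyclases and phosphodiesterases, 10 fell and 3 rose (6, 7, 8 and 6 falls without CTRL 1, CTRL 2, JQ1 1 and JQ1 2). Pde7b and Pde8a, which break down cyclic AMP, both fell: Pde7b went from 140 and 125 to 62 and 51 (-1.23 ± 0.11, adjusted p = 0.00134) and Pde8a from 230 and 216 to 117 and 110 (-0.97 ± 0.12, adjusted p = 0.00326). Prkar2b, a regulatory subunit of the kinase that cyclic AMP activates, rose from 250 and 254 to 443 and 415 (0.77 ± 0.08, adjusted p = 0.00172). Rras2, a Ras-like GTPase, rose from 295 and 290 to 510 and 464 (0.73 ± 0.08, adjusted p = 0.00234).

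Transport across membranes changed in both directions. Of 200 solute carriers past the floor, 29 fell and 25 rose (14.5% and 12.5%), both a little above the background, with a median of 0.03. Without CTRL 1, CTRL 2, JQ1 1 and JQ1 2 the rises numbered 12, 7, 4 and 7, and the falls 24, 20, 22 and 19. Slc2a2, a facilitative glucose carrier of liver and beta cells, went from 544 and 655 to 76 on both JQ1 arrays (-2.97 ± 0.13, adjusted p = 0.000306). Slc28a3, a nucleoside transporter, went from 169 and 154 to 30 and 36 (-2.30 ± 0.12, adjusted p = 0.000306), and Slc26a7, an anion exchanger, from 342 and 397 to 149 and 123 (-1.44 ± 0.15, adjusted p = 0.00199). Slc25a30, a mitochondrial carrier, rose from 173 and 160 to 305 and 304 (0.87 ± 0.08, adjusted p = 0.00132), and Slc43a2, which carries large neutral amino acids, from 210 and 225 to 375 and 367 (0.77 ± 0.09, adjusted p = 0.00312).

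Potassium channels had mostly falls. Among 31 potassium channel genes 9 fell and 1 rose (29.0% and 3.23%), and 7, 3, 4 and 5 fell without CTRL 1, CTRL 2, JQ1 1 and JQ1 2. Kcnk16, a leak channel of islet cells, read 753 and 731 in controls and 334 and 355 under JQ1 (-1.11 ± 0.07, adjusted p = 0.000489). Ano1, a chloride channel opened by calcium, went from 175 and 164 to 58 and 61 (-1.51 ± 0.08, adjusted p = 0.000306), one of 4 falls and 4 rises among 17 chloride channel genes. The chloride channel rises numbered 1, 0, 0 and 0 and the falls 2, 3, 2 and 2 without CTRL 1, CTRL 2, JQ1 1 and JQ1 2. Trpc5, a cation channel of neurons, fell from 191 and 207 to 77 on both JQ1 arrays (-1.37 ± 0.08, adjusted p = 0.000385).

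Metal handling genes had 5 rises and 3 falls among 30. Cnnm4, a magnesium transporter, rose from 160 and 137 to 443 and 470 (1.62 ± 0.09, adjusted p = 0.000385). Its chromosomal neighbours Lman2l and Cnnm3, noticed after the values were seen, were also called higher. Their calls under the other settings are not given here. The metallothionein genes Mt1 and Mt2, whose proteins bind zinc and copper, rose together, Mt1 from 772 and 762 to 1291 and 1359 (0.79 ± 0.09, adjusted p = 0.00242) and Mt2 from 502 and 508 to 1186 and 1219 (1.25 ± 0.09, adjusted p = 0.000745).

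**Figure D3:**
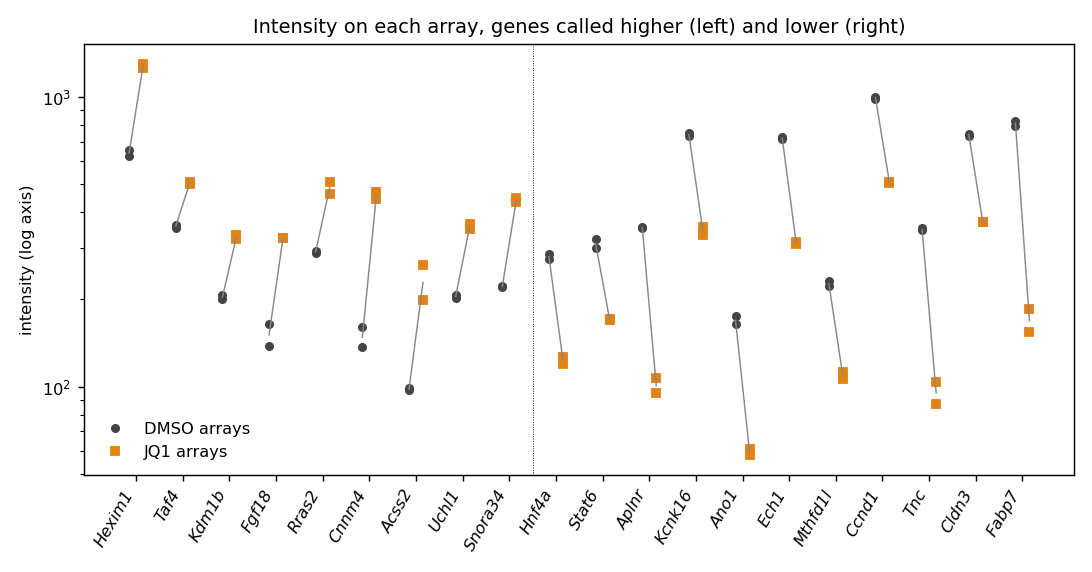
Intensity (log axis) of 20 named genes on each of the 2 DMSO arrays (dark circles) and 2 JQ1 arrays (orange squares), with a line between the geometric means of both groups. The 9 genes left of the dotted line were called higher and the 11 to its right lower. The arrays of both groups are apart for all 20, as for every called gene.

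In metabolism, cholesterol synthesis stood out. Of 21 genes past the floor 10 fell and none rose (47.6% against 10.7%), with a median of -0.36. Stard4, a sterol carrier, read 192 and 199 in controls and 127 and 103 under JQ1 (-0.77 ± 0.11, adjusted p = 0.0053). Nsdhl, an enzyme that removes methyl groups from sterol precursors, fell from 513 and 459 to 315 and 320 (-0.61 ± 0.09, adjusted p = 0.00554). Msmo1, which acts just before it, fell from 715 and 632 to 459 and 371 (-0.70 ± 0.13, adjusted p = 0.0134), a call lost without the floor (0.0736), CTRL 1 (0.0763) or JQ1 2 (0.0616). The falls numbered 4, 6, 7 and 4 without CTRL 1, CTRL 2, JQ1 1 and JQ1 2.

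The promoters of these cholesterol genes were searched for the CCAAT box, the letters that the factor NF-Y binds. RefSeq promoters (GRCm38.p6) matched 18 of the 21 genes. In the 250 bases before the start, CCAAT on either strand was found in at least 1 promoter of 17 of the 18 (94.4%), and of 3852 among 9452 coding genes past the floor with a promoter (40.8%). A match is a description of these letters and not a site. The 18 include genes that were not called, so the share describes the list and not its falls. The 3 called members with the largest falls among those with 1 listed promoter that could be shown are given with CCAAT, or its reverse complement ATTGG, in capitals; Cyp51, another enzyme of the pathway, was chosen in this way after its values were seen.
Msmo1, chr8:64733579-64733828, minus strand: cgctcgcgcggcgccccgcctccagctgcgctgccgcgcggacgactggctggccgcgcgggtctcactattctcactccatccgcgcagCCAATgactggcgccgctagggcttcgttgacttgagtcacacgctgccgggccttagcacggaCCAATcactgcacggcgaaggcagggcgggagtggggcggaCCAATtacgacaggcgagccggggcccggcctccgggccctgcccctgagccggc
Nsdhl, chrX:72918271-72918520, plus strand: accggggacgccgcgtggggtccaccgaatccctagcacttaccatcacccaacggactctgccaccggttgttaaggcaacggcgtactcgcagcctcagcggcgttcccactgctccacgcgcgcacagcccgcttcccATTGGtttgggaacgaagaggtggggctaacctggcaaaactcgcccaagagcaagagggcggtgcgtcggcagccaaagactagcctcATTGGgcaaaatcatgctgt
Cyp51, chr5:4104698-4104947, minus strand: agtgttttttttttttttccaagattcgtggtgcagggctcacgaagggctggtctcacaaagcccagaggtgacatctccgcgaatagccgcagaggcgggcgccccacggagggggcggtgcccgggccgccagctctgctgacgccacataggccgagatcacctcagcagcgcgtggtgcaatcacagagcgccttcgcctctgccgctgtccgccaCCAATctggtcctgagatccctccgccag
The Cyp51 row read 434 and 370 in controls and 285 and 256 under JQ1, and its call under the other settings is not given here.

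Lipid synthesis and breakdown were mixed. Fatty acid and lipid synthesis genes had 10 falls and 7 rises among 52, with 2, 6, 3 and 2 falls without CTRL 1, CTRL 2, JQ1 1 and JQ1 2. Acss2, which makes acetyl-CoA from acetate, rose from 97 and 99 to 263 and 199 (1.22 ± 0.13, adjusted p = 0.0023), and Elovl4, an elongase of very long fatty acids, from 136 and 119 to 232 and 215 (0.81 ± 0.10, adjusted p = 0.0029). Acsl5, which activates fatty acids, fell from 365 and 311 to 180 and 183 (-0.89 ± 0.10, adjusted p = 0.00283). Among 50 genes of fatty acid oxidation and peroxisomes 6 fell and 2 rose, and 3 fell without any 1 of those arrays. Ech1, an isomerase of unsaturated fatty acid breakdown, fell from 728 and 714 to 316 and 311 (-1.20 ± 0.07, adjusted p = 0.000449).

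Nucleotide and one-carbon metabolism had 8 falls and 2 rises among 36 (22.2% and 5.56%), with 4, 6, 4 and 4 falls without CTRL 1, CTRL 2, JQ1 1 and JQ1 2. Mthfd1l, which makes formate in mitochondria, read 232 and 222 in controls and 112 and 106 under JQ1 (-1.06 ± 0.07, adjusted p = 0.000608). Shmt1, the cytosolic serine hydroxymethyltransferase, fell from 360 and 345 to 222 and 199 (-0.75 ± 0.09, adjusted p = 0.00283). Glutathione and oxidant defence genes had 8 falls and 2 rises among 42, with 4, 7, 4 and 5 falls without the same arrays. Gsta3, a glutathione transferase, fell from 134 and 137 to 44 on both JQ1 arrays (-1.62 ± 0.09, adjusted p = 0.000306), and Nqo2, a quinone reductase, from 203 and 200 to 126 and 121 (-0.71 ± 0.07, adjusted p = 0.00169).

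Central carbon metabolism moved less. Glycolysis and gluconeogenesis genes had 5 falls and 2 rises among 31, with 1, 2, 3 and 3 falls without CTRL 1, CTRL 2, JQ1 1 and JQ1 2. Ldha, lactate dehydrogenase, fell from 1103 and 920 to 631 and 644 (-0.66 ± 0.10, adjusted p = 0.00785), a call lost without the floor (0.0501), while Pfkl, a phosphofructokinase, rose from 378 on both control arrays to 527 and 526 (0.48 ± 0.07, adjusted p = 0.00782). The 24 genes of the citric acid cycle had 1 rise and 1 fall. Among 74 oxidative phosphorylation genes 1 rose and 3 fell, under the background both ways. Their median was -0.06, beside 0.01 over all genes past the floor, and with arrays centred it was 0.01 beside 0.07.

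Genes of RNA and protein production included the list with the largest share of rises. Small nucleolar RNAs, which guide the modification of ribosomal RNA, had 29 rises and no fall among 89 (32.6% against 8.17%), with a median of 0.35, and 81 of the 89 had positive changes. Snora34 read 223 and 220 on the control arrays and 435 and 447 on the JQ1 arrays (0.99 ± 0.07, adjusted p = 0.000569). Snord89 was at 115 on both control arrays and 197 and 202 under JQ1 (0.79 ± 0.07, adjusted p = 0.00112). The rises numbered 17, 5, 10 and 10 without CTRL 1, CTRL 2, JQ1 1 and JQ1 2. Most of these RNAs are cut from introns of other genes, so their rows may also read the precursor of the host gene. In the buds given 500 nM I-BET151, a different dose, Snora34 read 249 and 244 and Snord89 133 and 135.

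The protein genes of ribosome biogenesis had 12 falls and no rise among 95, a share of falls near the background (12.6% against 10.7%). Of the 95, 78 had negative changes, with a median of -0.12. With arrays centred the median was -0.05, beside 0.07 over all genes past the floor. Under that centring 7 of the list fell, and 1026 of all 12420 genes. Gar1, a core protein of one class of small nucleolar particles, fell from 361 and 356 to 243 and 251 (-0.54 ± 0.07, adjusted p = 0.00423). Utp20, part of the early 40S assembly machinery, fell from 370 and 377 to 268 and 262 (-0.50 ± 0.07, adjusted p = 0.00531). Without CTRL 1, CTRL 2, JQ1 1 and JQ1 2, 3, 3, 5 and 2 of the list fell.

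Housekeeping machines were largely below the background, which was not matched to them in intensity. None of 38 cytosolic ribosomal protein genes was called in limma's fit, 4 of them had an unadjusted p under 0.05, and the member with the smallest p, Rpl15, had 650 and 633 in controls and 562 and 558 under JQ1 (-0.20 ± 0.07, adjusted p = 0.1). Splicing genes had 4 rises and 4 falls among 128, the proteasome 1 fall among 43, nuclear transport 3 falls among 53, and mitochondrial ribosomal proteins 2 rises and 3 falls among 74. Genes of the folding machinery in the endoplasmic reticulum had 2 rises and 2 falls among 45.

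Cytosolic chaperones had 6 rises and 6 falls among 81, close to the background, with 4, 3, 3 and 5 rises and 1, 0, 2 and 1 falls without CTRL 1, CTRL 2, JQ1 1 and JQ1 2. The rises included the stress-induced Hspa1a, from 79 and 87 to 358 and 339 (2.07 ± 0.22, adjusted p = 0.0021), and Hspa2, from 89 and 84 to 149 and 141 (0.75 ± 0.07, adjusted p = 0.00172). Hspa1a and Hspa1b are nearly the same in sequence, so their rows are uncertain. In buds given I-BET151 at 500 nM, the Hspa1a row read 262 and 154.

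Deubiquitinases, which remove ubiquitin from proteins, had 7 rises and 1 fall among 59 (11.9% and 1.69%), but 1, 2, 1 and 2 rises without CTRL 1, CTRL 2, JQ1 1 and JQ1 2. Uchl1, abundant in neurons and endocrine cells, rose from 207 and 202 to 363 and 350 (0.80 ± 0.07, adjusted p = 0.00128). Ubiquitin-conjugating enzymes and ligases had 19 rises and 12 falls among 209 (9.09% and 5.74%). Both counts were lower without any 1 control or JQ1 array, as they were over all genes past the floor. Trim62 rose from 186 on both control arrays to 334 and 321 (0.82 ± 0.08, adjusted p = 0.00149), and Rnf125, a ligase that restrains innate sensing, fell from 117 and 129 to 57 and 65 (-1.01 ± 0.14, adjusted p = 0.0046).

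Of 101 genes of mitosis and the kinetochore, 15 fell and 1 rose (14.9% and 0.99%), and 82 had negative changes, with a median of -0.19. With arrays centred the median was -0.12, beside 0.07 over all genes past the floor. Under that centring 7 of the list fell and 4 rose, and 1026 of all 12420 genes fell. Cenpq, a kinetochore protein, fell from 160 and 143 to 84 and 95 (-0.76 ± 0.10, adjusted p = 0.00453). The count of falls depended on single arrays. Without CTRL 1, CTRL 2, JQ1 1 or JQ1 2, the list's share of falls was near or below that of all genes in the same fit. DNA replication genes had 5 falls and 1 rise among 66, below the background for both. Cyclins, CDKs and their inhibitors had 8 falls and 4 rises among 58, with 4, 3, 5 and 4 falls without the same arrays. Ccnd1, the cyclin that links growth signals to the cell cycle, fell from 987 and 999 to 504 and 507 (-0.97 ± 0.07, adjusted p = 0.000608).

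DNA repair split into 12 rises and 11 falls among 92 genes. The mismatch repair gene Msh3 rose from 412 and 402 to 626 and 589 (0.58 ± 0.07, adjusted p = 0.00374), and Rad9b, of a checkpoint clamp, from 210 and 208 to 339 and 320 (0.66 ± 0.09, adjusted p = 0.00565). Rises numbered 5, 2, 2 and 4 and falls 4, 7, 4 and 6 without CTRL 1, CTRL 2, JQ1 1 and JQ1 2. Among p53 targets 5 of 22 fell and 2 rose, with 2, 2, 3 and 3 falls without the same arrays. Ccng1 fell from 1329 and 1213 to 679 and 616 (-0.97 ± 0.09, adjusted p = 0.00121) and the cell cycle inhibitor Cdkn1a from 1115 and 1070 to 683 and 680 (-0.68 ± 0.08, adjusted p = 0.00297), while Sesn2, a stress sensor, rose from 403 and 411 to 568 and 578 (0.49 ± 0.07, adjusted p = 0.00526). Of 31 apoptosis genes 3 fell and 1 rose, and the fallen Bak1, a pore former of mitochondria, went from 357 and 316 to 186 and 192 (-0.83 ± 0.09, adjusted p = 0.00187).

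The extracellular matrix was lower across several families. Matrix glycoproteins and proteoglycans had 26 falls and 3 rises among 68 (38.2% and 4.41%), and 19, 18, 19 and 19 falls without CTRL 1, CTRL 2, JQ1 1 and JQ1 2. Tnc, the tissue remodelling protein tenascin C, read 352 and 346 in controls and 104 and 87 under JQ1 (-1.88 ± 0.10, adjusted p = 0.000306). Dcn, which encodes decorin, went from 315 and 302 to 97 and 76 (-1.84 ± 0.13, adjusted p = 0.000608). Collagens had 10 falls and no rise among 30, with 8, 4, 5 and 7 falls without those 4 arrays in turn. Col8a1 fell from 213 and 222 to 79 and 78 (-1.47 ± 0.08, adjusted p = 0.000319), and Col14a1 from 267 and 251 to 118 and 119 (-1.13 ± 0.07, adjusted p = 0.000489).

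Matrix proteases and their inhibitors had 9 falls and 2 rises among 37, and 9, 5, 5 and 5 falls without CTRL 1, CTRL 2, JQ1 1 and JQ1 2. Plau, the plasminogen activator urokinase, went from 242 and 312 to 108 and 78 (-1.58 ± 0.19, adjusted p = 0.00318), and Mmp9, a gelatinase, from 122 and 123 to 53 and 60 (-1.12 ± 0.09, adjusted p = 0.000974). Laminins and integrins, which tie cells to the basement membrane, had 12 falls and 5 rises among 40, with 6, 3, 3 and 7 falls and 3, 4, 2 and 2 rises without the same arrays. Itga2, a collagen receptor, fell from 292 and 309 to 151 and 128 (-1.11 ± 0.10, adjusted p = 0.00125). Vcl, the focal adhesion protein vinculin, rose from 670 and 661 to 1052 and 1100 (0.69 ± 0.08, adjusted p = 0.0028).

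Junction genes of the epithelium changed unevenly. Tight and gap junctions had 10 falls and 3 rises among 40, and 4, 3, 4 and 3 falls without CTRL 1, CTRL 2, JQ1 1 and JQ1 2. Cldn3, a claudin, stood at 746 and 736 in controls and 370 on both JQ1 arrays (it fell by 1.00 ± 0.10 on the log2 scale, adjusted p = 0.00163), and Ocln, which encodes occludin, fell from 317 and 330 to 204 and 206 (-0.66 ± 0.07, adjusted p = 0.00208). Cadherins and desmosomal genes had 6 rises and 6 falls among 34, with 3, 4, 4 and 3 rises and 1, 4, 3 and 4 falls without the same arrays. Cdh24 rose from 204 and 196 to 341 and 348 (0.78 ± 0.07, adjusted p = 0.00134), and Dsc2, a desmosomal cadherin, went from 161 and 168 to 89 and 76 (it fell by 1.00 ± 0.09, adjusted p = 0.00134).

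The cytoskeleton lists differed. Actin and myosin genes had 11 falls and 9 rises among 76 (4, 5, 5 and 5 falls and 6, 5, 5 and 4 rises without CTRL 1, CTRL 2, JQ1 1 and JQ1 2), and tubulins and microtubule proteins 11 rises and 6 falls among 81 (13.6% and 7.41%). Pdlim3, an actin-associated protein of muscle, fell from 355 and 379 to 113 and 105 (-1.75 ± 0.08, adjusted p = 0.000306). Myo6, the myosin that walks towards minus ends, rose from 331 and 349 to 640 and 624 (0.89 ± 0.08, adjusted p = 0.0011). Kif5c, a neuronal kinesin, rose from 75 and 68 to 141 and 138 (0.97 ± 0.08, adjusted p = 0.00116). The microtubule rises numbered 4 in each fit without 1 of the control or JQ1 arrays. Intermediate filament genes had 4 falls and no rise among 17 (1, 2, 2 and 2 falls without the same arrays), and Krt18, a keratin of simple epithelia, fell from 258 and 269 to 186 and 178 (-0.53 ± 0.07, adjusted p = 0.00498).

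Tetraspanins, which organise the cell membrane, and the calcium-binding annexins and S100 proteins had together 14 falls and 1 rise among 35, and 5, 5, 6 and 4 falls without CTRL 1, CTRL 2, JQ1 1 and JQ1 2. S100a6 fell from 133 and 148 to 45 and 36 (-1.80 ± 0.13, adjusted p = 0.000608), and Anxa4, an annexin of ductal and acinar epithelium, from 498 and 490 to 283 and 273 (-0.83 ± 0.09, adjusted p = 0.00192).

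Secreted proteins past the floor were often lower. The table held 54 serpins, most of them below the floor, and the median change over all 54 was -0.003. Of 12 serpins past the floor, 8 fell and none rose (66.7%), with a median of -1.16, and 5, 6, 5 and 7 fell without CTRL 1, CTRL 2, JQ1 1 and JQ1 2. Serpina1c, an alpha-1-antitrypsin copy, read 1149 and 1311 in controls and 348 and 331 under JQ1 (-1.85 ± 0.13, adjusted p = 0.000596). Serpina6, corticosteroid-binding globulin, went from 1654 and 1927 to 225 and 406 (-2.56 ± 0.35, adjusted p = 0.00475), and the 2 JQ1 arrays differed more than the controls did. The Serpina1 genes are near-identical copies that lie side by side, and a run of 5 neighbours there, Serpina6 and 4 Serpina1 genes, was called lower.

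Several of these genes are also made by liver. The summed intensity of 13 liver markers was 5806 and 5540 on the control arrays and 3420 and 5499 on JQ1 1 and JQ1 2, so both JQ1 arrays lay below the controls, JQ1 1 by far more, and 2 of the markers were under 50 on every array. Of 9 liver markers past the floor 3 fell and none rose, and 1, 0, 0 and 2 fell without CTRL 1, CTRL 2, JQ1 1 and JQ1 2. The liver markers summed to 3455 and 5102 on I-BET151 1 and I-BET151 2, so array 1 was the lower with both inhibitors. The part of liver-like cells in the serpin falls was not tested. Without JQ1 1, Serpina1c changed by -1.89 on the log2 scale (adjusted p = 0.00705) and Serpina6 by -2.14 (adjusted p = 0.0262).

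Digestive enzymes had 5 falls and no rise among 8 past the floor, and 4 to 5 falls without any 1 array. The median of those 8 was -0.66, and over all 35 digestive enzymes in the table it was -0.06. Pnliprp1, a lipase-related protein of acinar cells, read 528 and 648 in controls and 125 and 120 under JQ1 (-2.26 ± 0.15, adjusted p = 0.000541), and Clps, which encodes colipase, 456 and 494 against 251 and 234 (-0.97 ± 0.08, adjusted p = 0.0011). Granins and hormones had 5 falls and 2 rises among 25, with 4, 2, 2 and 4 falls without CTRL 1, CTRL 2, JQ1 1 and JQ1 2. Tac2, which encodes neurokinin B, fell from 894 and 873 to 244 and 206 (-1.98 ± 0.12, adjusted p = 0.000435), and Penk, the enkephalin precursor, from 446 and 382 to 149 and 100 (-1.76 ± 0.20, adjusted p = 0.00274).

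Interferon response genes, part of innate defence, had 9 falls and 1 rise among 24 (37.5% and 4.17%), and 6, 6, 7 and 8 falls without CTRL 1, CTRL 2, JQ1 1 and JQ1 2. Ifitm3, which blocks virus entry, fell from 672 and 621 to 190 and 266 (-1.52 ± 0.16, adjusted p = 0.00181), and Bst2, which tethers budding virus, from 204 and 185 to 100 and 107 (-0.91 ± 0.10, adjusted p = 0.00233).

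The labelled tissue was checked against markers of its cells. Of the 14 pancreatic epithelium markers, all past the floor, 1 rose (Mnx1) and 2 fell (Krt18 and Krt8, the latter lost without the floor or any 1 array), and their summed intensity was 9173 and 9398 in controls and 8544 and 8982 under JQ1. Pdx1, a factor of all pancreatic progenitors, read 252 and 228 in controls and 244 and 330 under JQ1 (adjusted p = 0.303). Neurog3, which commits cells to the endocrine fate, read 432 and 520 against 508 and 439 (adjusted p = 0.98), so both groups overlapped for these 2 genes. Serpini1, the neuroserpin gene, was at 60 and 51 against 79 and 68 and was not called (0.41 ± 0.13, adjusted p = 0.072), but passed with arrays centred (0.0457). Of 13 endocrine markers 1 rose and none fell.

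Of 15 endothelial markers, all past the floor, 11 fell and none rose (73.3%), and 8, 7, 6 and 8 fell without CTRL 1, CTRL 2, JQ1 1 and JQ1 2. Their sum was 7585 and 7747 in controls and 5226 and 5312 under JQ1. Emcn, a surface mucin of veins and capillaries, fell from 856 and 748 to 411 and 442 (-0.91 ± 0.09, adjusted p = 0.00179), and Eng, a TGF-beta coreceptor of endothelium, from 599 and 640 to 340 and 353 (-0.84 ± 0.07, adjusted p = 0.00121). Mesenchyme markers had 5 falls and 1 rise among 14 (3, 3, 5 and 4 falls without the same arrays), with sums of 19410 and 19692 in controls and 17388 and 17257 under JQ1. Postn, the matrix protein periostin, went from 489 and 550 to 115 and 104 (-2.25 ± 0.11, adjusted p = 0.000306).

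Markers of neural crest and glia had 3 falls and 1 rise among 7, and a sum of 2701 and 2762 in controls against 1674 and 1790 under JQ1, with 3 of its 11 members under 50 on every array. Fabp7, a lipid carrier of glial precursors, fell from 795 and 829 to 154 and 185 (-2.27 ± 0.22, adjusted p = 0.00162), and Ednrb, the endothelin receptor that migrating crest cells need, from 641 and 665 to 369 and 406 (-0.75 ± 0.09, adjusted p = 0.00253). Macrophage markers summed to 5638 and 6051 in controls and 5862 and 6213 under JQ1, and erythroid markers to 9361 and 10178 against 9788 and 9777, so neither sum separated the groups. Of 12 macrophage markers 3 fell and 1 rose, with 2, 0, 0 and 1 falls without CTRL 1, CTRL 2, JQ1 1 and JQ1 2. Mesothelial markers summed to 3282 and 3111 against 3415 and 3122. Of the 10 gut markers 8 were under 50 on every array. The part of these cell types in the falls of matrix, receptor and vessel genes was not tested.

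**Figure D4:**
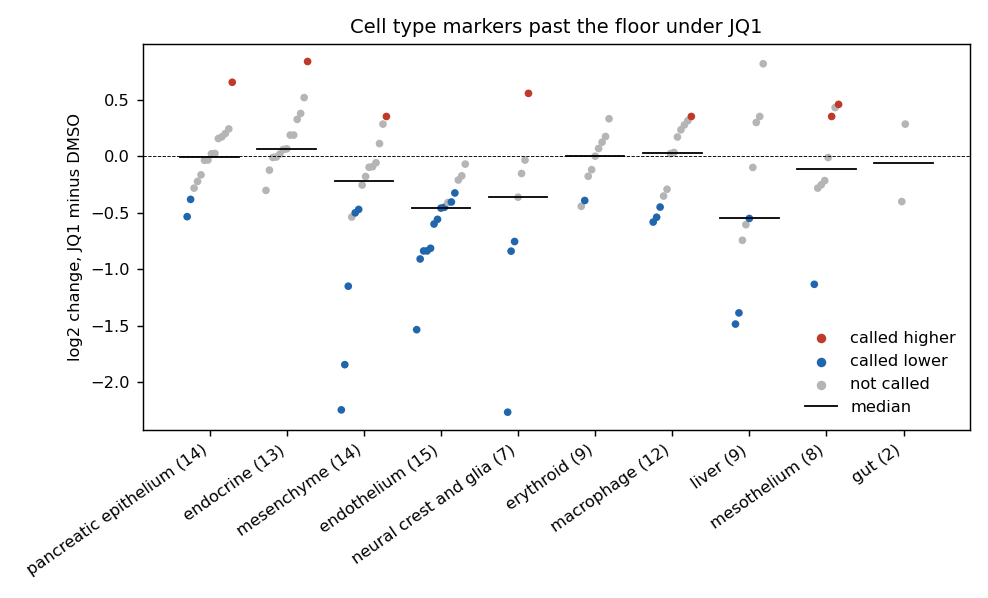
Log2 change (JQ1 minus DMSO) of each cell type marker past the floor, with the number past the floor in brackets and a black bar at the list's median; red and blue points were called higher and lower. All 15 endothelial points lie below 0, with a median of -0.46, while pancreatic epithelium centres on -0.01.

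The naming rule also took the calls under 2-fold with the smallest p, so these genes are small in change and tight between arrays by choice. Caprin2, an RNA-binding protein, rose from 391 and 377 to 713 and 680 (0.86 ± 0.07, adjusted p = 0.00111), Zswim6 from 514 and 545 to 956 and 966 (0.86 ± 0.07, adjusted p = 0.00107), and Snx14, a sorting nexin of the endoplasmic reticulum, from 298 and 320 to 555 and 532 (0.82 ± 0.07, adjusted p = 0.00134). Bcl6, a transcriptional repressor, stood at 47 on both control arrays and 82 on both JQ1 arrays (0.80 ± 0.07, adjusted p = 0.00122). Napepld, which makes N-acylethanolamine lipids, rose from 195 and 180 to 336 and 374 (0.92 ± 0.09, adjusted p = 0.00134).

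Loxl3, a lysyl oxidase that cross-links collagen, fell from 366 and 356 to 191 and 200 (-0.89 ± 0.07, adjusted p = 0.000974), and P3h2, a collagen prolyl hydroxylase, from 301 and 274 to 152 and 153 (-0.91 ± 0.08, adjusted p = 0.00111). Mgll, which breaks down monoacylglycerols, fell from 124 and 121 to 70 and 68 (-0.83 ± 0.07, adjusted p = 0.00111). Lbp, which hands bacterial lipopolysaccharide to its receptor, fell from 109 and 112 to 61 and 58 (-0.89 ± 0.07, adjusted p = 0.00109). Tmem255a fell from 1009 and 1040 to 538 and 540 (-0.93 ± 0.08, adjusted p = 0.00107).

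By gene class, coding genes had 942 rises and 1304 falls among 11609 past the floor (8.11% and 11.2%), and long noncoding RNAs 30 rises and 14 falls among 376 (7.98% and 3.72%). Coding genes that span over 100 kb had 190 rises and 216 falls among 1651, and those of 5 to 20 kb 206 rises and 452 falls among 3771. Some called genes were neighbours on a chromosome: runs of at least 3 adjacent genes past the floor with the same call included Cav2, Cav1 and Met (lower) and Mcm3ap, Lss, Col6a2 and Col6a1 (lower). These runs were picked after the values were seen.

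Falls were unevenly spread over promoter types. Most mammalian promoters lie in CpG islands, where CG dinucleotides are kept, and genes with few CG letters are more often tissue-restricted. For each coding gene with a RefSeq promoter (9452 of 11609, 81.4%), the ratio of observed to expected CG was taken over the 250 bases before the start, averaged over its promoters. Of 589 genes with a ratio under 0.25, 28.5% fell and 3.23% rose. Of 1072 genes with a ratio of 1 or more, 3.92% fell and 8.58% rose. The genes between lay in order, with 273 falls of 1435, 297 of 3069 and 213 of 3286 in bins of 0.25 to 0.5, 0.5 to 0.75 and 0.75 to 1. Genes with few CG are also dimmer, so the same was computed for genes with a mean intensity over the 6 arrays of 200 or more: 30.2% of 159 genes under 0.25 fell, and 2.80% of 822 genes at 1 or more. These shares carry no test. Called falls had a promoter in the table in 76.2% of cases, under 80%, so no summary over the fallen genes alone is given.

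**Figure D5:**
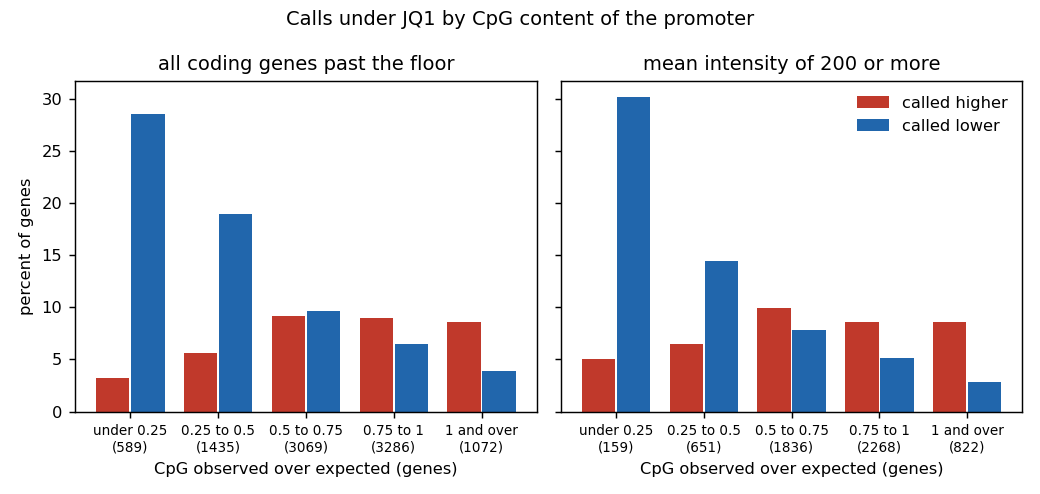
Percent of coding genes called higher (red) or lower (blue) under JQ1 in 5 bins of the CpG observed over expected ratio of the 250 bases before the start, with the number of genes in brackets, for all genes past the floor (left) and for those with a mean intensity of 200 or more (right). The blue bars drop from 28.5% to 3.92% on the left and from 30.2% to 2.80% on the right.

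Single promoters show how wide the range is. The windows that follow belong to the 3 largest falls and to Hspa1a and Nepn, of the largest rises, among genes with 1 listed promoter that could be shown, and to Hexim1, which was chosen by name. All were chosen after their values were seen. The windows are printed with each CG in capitals (RefSeq, GRCm38.p6). The first 3 fell.
Slc2a2, chr3:28697653-28697902, plus strand: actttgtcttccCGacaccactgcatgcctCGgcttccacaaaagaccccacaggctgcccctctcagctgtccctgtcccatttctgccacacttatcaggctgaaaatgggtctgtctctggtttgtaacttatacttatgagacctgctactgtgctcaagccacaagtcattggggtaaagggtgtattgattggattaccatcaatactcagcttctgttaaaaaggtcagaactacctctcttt
Wfdc15b, chr2:164221664-164221913, minus strand: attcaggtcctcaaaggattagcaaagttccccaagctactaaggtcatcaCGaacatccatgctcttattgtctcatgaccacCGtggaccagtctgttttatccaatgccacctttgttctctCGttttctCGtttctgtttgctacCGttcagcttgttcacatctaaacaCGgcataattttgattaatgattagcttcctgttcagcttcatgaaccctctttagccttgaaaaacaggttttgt
Adgrg6, chr10:14545037-14545286, minus strand: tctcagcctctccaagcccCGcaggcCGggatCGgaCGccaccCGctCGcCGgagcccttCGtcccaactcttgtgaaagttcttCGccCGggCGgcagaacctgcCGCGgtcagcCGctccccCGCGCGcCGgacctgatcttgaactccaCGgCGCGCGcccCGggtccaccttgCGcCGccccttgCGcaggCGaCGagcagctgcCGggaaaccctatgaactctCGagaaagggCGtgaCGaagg
The next 3 rose.
Hspa1a, chr17:34972157-34972406, minus strand: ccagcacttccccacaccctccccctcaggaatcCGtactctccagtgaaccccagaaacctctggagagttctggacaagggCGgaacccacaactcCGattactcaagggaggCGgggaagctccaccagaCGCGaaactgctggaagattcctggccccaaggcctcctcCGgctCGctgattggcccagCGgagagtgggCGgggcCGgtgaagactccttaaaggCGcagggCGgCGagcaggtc
Nepn, chr10:52391358-52391607, plus strand: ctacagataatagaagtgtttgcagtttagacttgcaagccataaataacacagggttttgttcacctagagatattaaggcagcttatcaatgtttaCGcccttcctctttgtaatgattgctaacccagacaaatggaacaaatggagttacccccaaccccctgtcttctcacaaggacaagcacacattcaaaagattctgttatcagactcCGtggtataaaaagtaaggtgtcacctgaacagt
Hexim1, chr11:103116075-103116324, plus strand: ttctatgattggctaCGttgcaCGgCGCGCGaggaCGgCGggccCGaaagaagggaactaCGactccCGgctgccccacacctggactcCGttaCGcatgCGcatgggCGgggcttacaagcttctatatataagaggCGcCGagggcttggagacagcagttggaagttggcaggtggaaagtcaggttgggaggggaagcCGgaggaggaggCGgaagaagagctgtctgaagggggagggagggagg
The Slc2a2 window has 2 CG (a ratio of 0.15) and that of Wfdc15b, a whey acidic protein family gene, 6 (0.586). Adgrg6 departs from the trend, with 32 CG (1.08) and a 5.06-fold fall. Among the rises, Hexim1 has 18 CG (0.857) and Hspa1a 14 (0.563), but Nepn, which encodes a small leucine-rich proteoglycan, has 2 (0.198). Wfdc15b read 333 and 329 in controls and 60 and 58 under JQ1 (-2.49 ± 0.12, adjusted p = 0.000306). Nepn read 223 and 121 against 523 and 615 (1.79 ± 0.28, adjusted p = 0.00785), with controls wide apart, and its call was lost without the floor (adjusted p = 0.0619). The Hspa1b window differs from that of Hspa1a at 3 of 250 bases and is not shown.

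Motifs of known factors were counted in the same windows on both strands. Among the 767 risen coding genes with a promoter (81.4% of 942), GGGCGG, the core of the Sp1 box, occurred in 73.3% of promoters, and in 60.8% over all 9452 coding genes. CCAAT occurred in 40.3% against 36.3%, the E-box CACGTG in 8.27% against 8.5%, and TATAAA in 6.50% against 6.24%. GAANNTTC, a fragment of the heat shock element, occurred in 5.69% against 4.81%, the AP-1 motif TGACTCA in 1.76% against 2.68%, and the CREB motif TGACGTCA in 3.83% against 2.74%. GGGCGG holds a CG itself, so its share moves with the CG content.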

How the data were processed

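RNA of pooled buds was amplified and hybridised to Affymetrix whole-transcript arrays, per the labels' protocols. The deposited table holds linear intensities as whole numbers, which the authors made with RMA, per the submitters' processing notes; array settings are not given in the sources used here, and rounding is coarse for dim genes. Rows were named by Entrez gene ID; 958 rows without a single symbol were left out. The log2 of the intensity was fitted with limma 3.58.1 in R 4.3.3 over all 6 arrays, past a floor of 50, with Benjamini-Hochberg adjustment and calls at 0.05. Array medians were 54 to 57. Only 2 arrays per group limit the precision. On simulated data with 200 of 12420 genes changed, 84.8% of genes changed by 1 log2 unit and 43.1% of those changed by 0.5 were found, with 5.7 false calls per draw. Far more genes were called in the real data (18.8%), so these figures do not give the number of false calls there.

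Named genes were the 15 rises and 15 falls under 2-fold with the smallest p, the 3 largest rises and falls of each list (or its smallest p), the 5 largest of each direction, and Brd2, Brd3, Hexim1, Myc, Pdx1, Neurog3 and Serpini1; some items are not reported here. Genes and lists were chosen with earlier results of these data known, and lists were corrected after their members were seen. Alternatives covered the floor, array centring, the variance prior, a pseudocount of 16, the arrays in the fit and a replicate block.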

Additional observations from a re-analysis of the deposited data

Results flagged for a closer look

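Among the 958 rows without a single gene symbol, which no comparison above used, 451 passed the floor. Of these 29 were called higher and 43 lower under JQ1, with the largest rise at 1.00 and the largest fall at -1.96 on the log2 scale.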

How the results depend on the processing

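Without the floor, 272 genes rose and 640 fell, with more dim genes in the fit. With arrays centred on their median, 1597 rose and 1026 fell. Leaving out 1 array gave 241 to 883 rises and 607 to 1236 falls. Floors of 30 and 100, an intensity trend with a robust prior, a pseudocount of 16 and the control and JQ1 arrays alone each kept both counts within 1.5 times of 1015 and 1323. With a replicate block the counts were 789 and 1152. Over all genes past the floor, the deviations of same-numbered arrays had r of -0.02, -0.09 and 0.03. With 2 arrays per group these values cannot tell whether the numbers pair the pools, which the labels do not state. No called gene turned direction under any of the 14 alternatives that tested it. None could: the JQ1 and control arrays of each called gene did not overlap, and centring moved every change by less than the smallest called one. Of 467 called genes that the naming rule gave, 218 kept their call under each alternative that tested them, since dimmer genes were not tested at the higher floor. Signals near the floor limit what can be called, and single-array fits rest on 1 array in a group, assumed to vary like the others.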
